A study of Mus musculus with 8 samples.

Results

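The genes described here encode the proteins of the mitochondrial ribosome, the machine that translates the messages of mitochondrial DNA. They were taken as all genes on the array whose symbol is Mrpl or Mrps followed by a digit. Of 78 such genes, covered by 100 probes, 77 were bright enough to be tested, among 14730 genes tested in all. Mrpl21, whose only probe was not well above background on any array, was left out. Of the 77 genes, 50 belong to the large subunit, among them Mrps18a and Mrps30, which carry a small-subunit symbol but lie in the large subunit of the mammalian structure. A further 26 belong to the small subunit. Mrps36 was put in neither, because its product is known as a component of the oxoglutarate dehydrogenase complex of the tricarboxylic acid cycle.

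Expression was measured with 1-colour Agilent arrays in inguinal white adipose tissue, a subcutaneous depot of the groin, from 4 Senp2-aKO and 4 control mouse samples. Senp2-aKO mice were Senp2 flox/flox and carried Adipoq Cre, a recombinase under the adiponectin promoter, which is active in adipocytes, so that other cells of the pad keep the gene. Control mice were Senp2 flox/flox without Cre. All mice, 8 weeks old at the start, received a high-fat diet (58 kcal% fat with sucrose) for 12 weeks at 22 to 24 °C, and no group on ordinary diet was compared here. The labels name no sex and do not say whether a sample came from 1 animal or several, so p-values cover the spread between these samples.

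Mitochondrial ribosomes make only the few core subunits of the respiratory chain and ATP synthase that mitochondrial DNA encodes. Every protein of the mitochondrial ribosome is itself encoded in the nucleus, made by cytosolic ribosomes and imported, whereas the ribosomal RNAs come from mitochondrial DNA. Part of the proteins descend from the bacterial ribosome and the rest were gained in the mitochondrial lineage, many of them on the surface of the particle. Brown and beige adipocytes are rich in mitochondria, and the series asks whether loss of SENP2, a protease that removes SUMO from other proteins, shifts white fat towards that state through C/EBPβ.

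Promoters of several of these genes are known for sites of NRF1, of ETS factors such as GABP, and of YY1, all regulators of nuclear genes for mitochondrial proteins. Windows of 300 bases, from 250 before to 50 after a start site, were available from RefSeq (GRCm38.p6) for 68 of the 77 genes, in 74 windows. Of these, 4 are shown, for the gene that passed the test (Mrpl45), the gene with the next lowest adjusted p (Mrps18a), a gene with a palindromic NRF1 match (Mrpl39) and the gene with the lowest log2 fold change (Mrps6). Capitals mark matches to GCGCANGCG (NRF1), CCGGAAG (ETS) or AAGATGGCG (YY1) on either strand.
Mrpl45, chr11:97315466-97315765, plus strand: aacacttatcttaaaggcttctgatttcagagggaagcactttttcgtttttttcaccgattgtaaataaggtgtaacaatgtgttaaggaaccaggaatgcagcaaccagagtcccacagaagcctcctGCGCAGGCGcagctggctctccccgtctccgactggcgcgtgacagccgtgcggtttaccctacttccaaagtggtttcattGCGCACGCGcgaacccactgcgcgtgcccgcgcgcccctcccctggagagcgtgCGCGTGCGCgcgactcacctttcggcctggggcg
Mrps18a, chr17:46110754-46111053, plus strand: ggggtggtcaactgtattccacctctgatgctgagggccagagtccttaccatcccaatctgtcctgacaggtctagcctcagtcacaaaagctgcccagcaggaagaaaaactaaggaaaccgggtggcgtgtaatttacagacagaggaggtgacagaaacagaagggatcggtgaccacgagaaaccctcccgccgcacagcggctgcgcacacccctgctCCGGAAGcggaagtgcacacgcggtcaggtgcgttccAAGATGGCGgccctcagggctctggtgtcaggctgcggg
Mrpl39, chr16:84735195-84735494, minus strand: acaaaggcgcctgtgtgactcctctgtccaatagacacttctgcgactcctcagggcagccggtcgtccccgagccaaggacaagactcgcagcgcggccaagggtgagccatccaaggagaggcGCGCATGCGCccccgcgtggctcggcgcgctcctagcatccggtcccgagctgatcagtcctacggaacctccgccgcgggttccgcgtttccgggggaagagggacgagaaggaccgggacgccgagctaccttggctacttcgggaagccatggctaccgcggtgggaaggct
Mrps6, chr16:92058086-92058385, plus strand: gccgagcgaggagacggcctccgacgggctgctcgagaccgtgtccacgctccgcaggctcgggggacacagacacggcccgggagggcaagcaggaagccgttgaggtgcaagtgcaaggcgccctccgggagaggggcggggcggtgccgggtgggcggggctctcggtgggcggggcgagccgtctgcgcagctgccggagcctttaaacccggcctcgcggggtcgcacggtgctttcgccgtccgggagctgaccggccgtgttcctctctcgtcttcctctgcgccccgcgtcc

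Mrpl45 had 3 NRF1 matches, beginning at -120, -38 and +17 relative to the start site. Mrps18a had an ETS match at -26 and a YY1 match at +12, and in Mrpl39 a pair of NRF1 matches on opposite strands overlapped at -125 and -124. Mrps6 had none of these 3 motifs. A match is a string of letters and not a measured site, and the absence of one says nothing about the factor.

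Over the 68 genes, 16 (23.5%) held the NRF1 motif, against 13.2% of 11607 other tested genes with a window and 6.25% of all windows in the table. The ETS motif was found in 25 (36.8%), against 17.4% of the other tested genes, and the YY1 motif in 8 (11.8%), against 3.04%. In 6 of those 8 genes the YY1 match began after the start site, between +12 in Mrps18a and +37 in Mrps24. The C/EBP motif TTGCNNAA, searched because the series concerns C/EBPβ, was found in 3 (4.41%), Mrpl28, Mrpl42 and Mrps22, against 10.8% of the other tested genes. The nuclear receptor motif AGGTCA was found in 16.2%, against 15.7%, and the CCAAT box in 39.7%, against 42.2%. At least 1 of the NRF1, ETS and YY1 motifs was present in 41 genes, and 27 had none. The median log2 fold change was 0.12 in genes with the NRF1 motif and 0.14 in those without it, 0.05 with and 0.15 without the ETS motif, and 0.16 with and 0.14 without the YY1 motif. These differences were not tested. Windows were not available for Mrpl4, Mrpl13, Mrpl15, Mrpl19, Mrpl38, Mrpl54, Mrps28, Mrps34 and Mrps35.

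Levels below are log2 signals relative to the 75th percentile of the same array, so that 0 is the level of a probe at that percentile, and each log2 fold change is the Senp2-aKO mean minus the control mean. They compare 1 gene between arrays and do not rank genes against each other. The 75th percentile of the signal itself lay between 324 and 382 on the Senp2-aKO arrays and between 408 and 446 on the control arrays, no spot was saturated, and all 8 arrays shared a slide on which row and group cannot be told apart. Senp2 read 2.19, 2.12, 2.20 and 2.22 in Senp2-aKO samples 1 to 4, against 2.46, 2.46, 2.52 and 2.37 in control samples 1 to 4. All 4 Senp2-aKO values lay below all control values, a difference of -0.27 on the log2 scale (SE 0.08, adjusted p = 0.0507 in limma). Whether its probe lies in the deleted part of the gene is not given in the sources used here.

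Mrpl45 rose in Senp2-aKO samples and no member of the family fell, that is 1 and 0 of 77 at a limma Benjamini-Hochberg adjusted p under 0.05. Over all 14730 genes, 7.29% rose and 7.12% fell at the same threshold. Without adjustment, at a p under 0.05, 7 members were higher and 1 was lower, against 14.7% and 17.6% of all genes. In a whole tissue, fewer cells of a type and less RNA per cell cannot be told apart. The median log2 fold change of the family was 0.14, against -0.02 over all genes, and 56 of 77 members (72.7%) were above 0 against 47.3% of all genes. Centring the arrays on their median instead of the 75th percentile placed 45 of 77 members above 0 against 36.6% of all genes. It left no member passing in limma, while 1 member was higher and 2 were lower at p under 0.05 without adjustment. The share of all genes without adjustment was not counted under median centring. The split of all calls was then 772 higher and 1312 lower, against 1074 and 1049.

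Most differences were small. Log2 fold changes ran between -0.76 for Mrps6 and 0.39 for Mrpl45, with a median SE of 0.13 (0.08 to 0.31). The 95% interval of the difference stayed within 1.5-fold in either direction for 65 of the 77 genes and within 2-fold for 76.

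**Figure D1:**
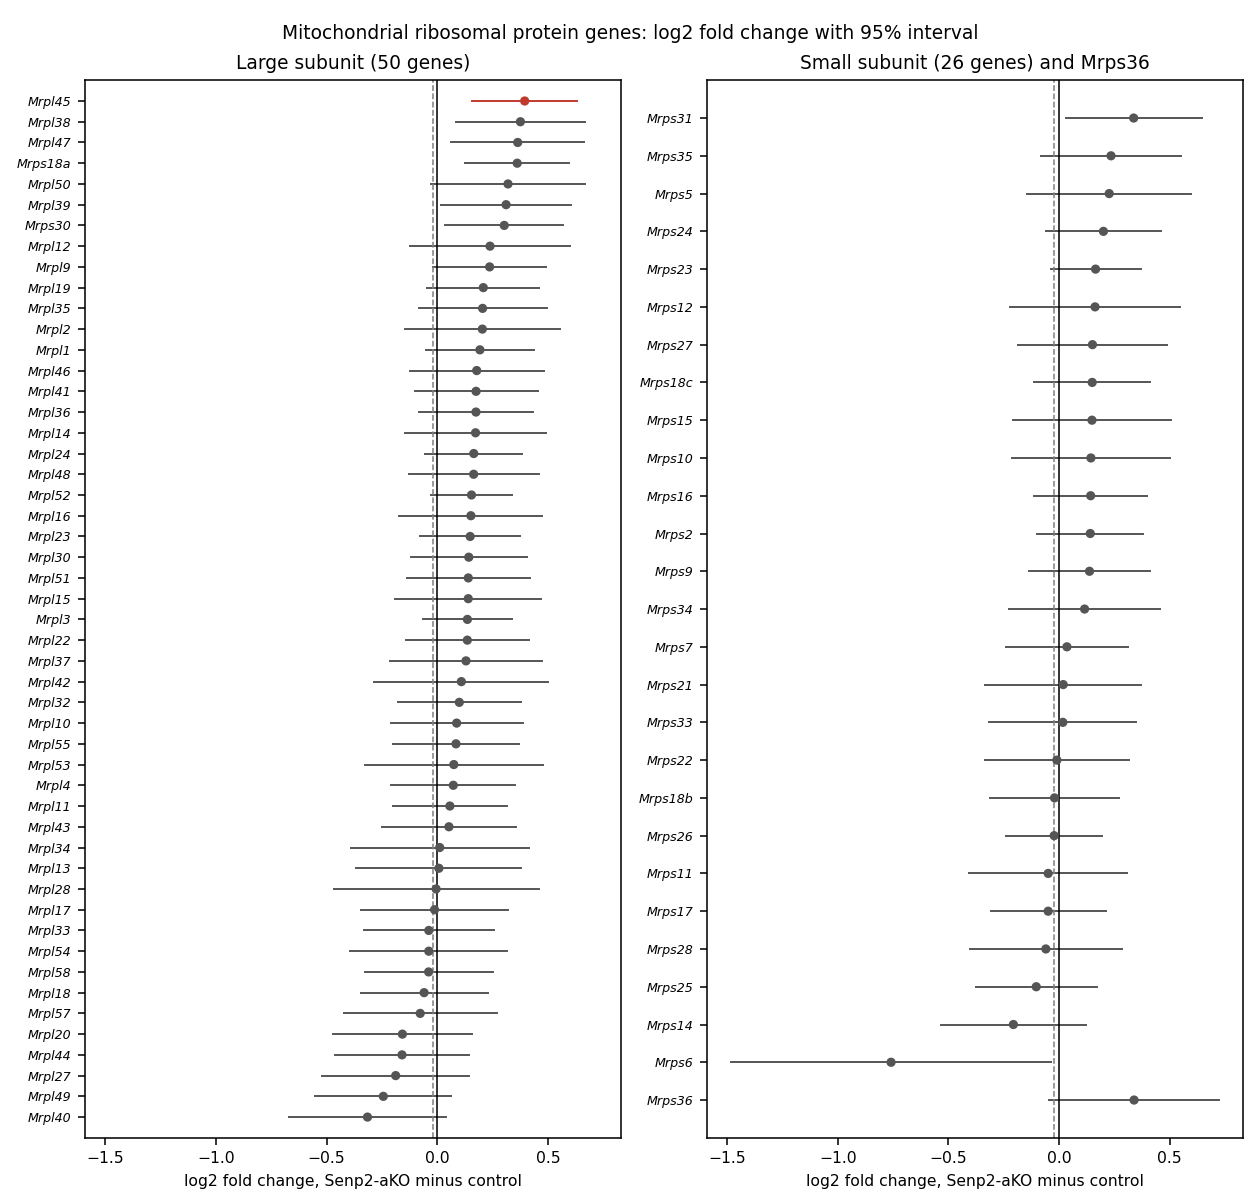
Log2 fold change (Senp2-aKO minus control, x axis) of each member with its 95% interval, large subunit at left, small subunit and Mrps36 at right, n = 4 arrays per group. The red point is Mrpl45 (adjusted p = 0.0395), the dashed line is the median of all genes (-0.02), and most points lie between 0 and 0.4.

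Among large-subunit proteins without a bacterial counterpart, 1 of 21 measured genes rose, none fell, and the median log2 fold change was 0.14. Mrpl45, whose product sits at the exit of the peptide tunnel and ties the ribosome to the inner membrane, read 3.46, 3.26, 3.12 and 3.44 in Senp2-aKO samples, against 2.90, 2.93, 2.86 and 3.03 in control samples. Every Senp2-aKO array was above every control array. The difference was 0.39 (SE 0.10) or 1.31-fold (95% interval 1.12 to 1.55), with limma adjusted p = 0.0395. The call did not survive leaving out Senp2-aKO 1 or 4 or any of the 4 controls, each of which gave an adjusted p between 0.0675 and 0.109, while the difference stayed between 0.35 and 0.46. Median centring gave 0.30 (adjusted p = 0.111).

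Mrps18a is 1 of 3 mammalian relatives of the bacterial small-subunit protein S18, and the only 1 of them that lies in the large subunit. It read 3.87, 3.59, 3.59 and 3.83 in Senp2-aKO samples, against 3.38, 3.29, 3.30 and 3.47 in control samples. The groups did not overlap, and the difference of 0.36 (SE 0.10) just missed the threshold (adjusted p = 0.0506). Its relatives in the small subunit did not separate the groups: Mrps18c differed by 0.15 (SE 0.11, adjusted p = 0.401) and Mrps18b by -0.02 (SE 0.13, adjusted p = 0.929). The differences between the 3 relatives were not tested.

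Mrps30, a protein also linked to cell death, read 3.45, 3.18, 3.25 and 3.31 in Senp2-aKO samples, against 2.99, 3.07, 2.74 and 3.17 in control samples. The groups were apart by a narrow margin between Senp2-aKO 2 and control 4 (0.30, SE 0.12, adjusted p = 0.115). Mrpl52, chosen after its values were seen because its groups did not overlap either, differed by 0.15 (SE 0.08, adjusted p = 0.22). These 4 genes, Mrpl45, Mrps18a, Mrps30 and Mrpl52, were the only members with all Senp2-aKO arrays above all controls, 4 of 77 where 11.2% of all genes were. All 4 lie in the large subunit and lack a bacterial counterpart there.

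Mrpl38, a member of the phosphatidylethanolamine-binding protein family, read 2.11, 1.67, 1.90 and 2.18 in Senp2-aKO samples, against 1.63, 1.54, 1.49 and 1.69 in control samples. Senp2-aKO 2 fell just inside the control range, and the difference of 0.38 (SE 0.13) did not pass (adjusted p = 0.0843). Mrpl37 differed by 0.13 (SE 0.15), and Mrpl44, which has the fold of a double-stranded RNA nuclease and whose human counterpart is mutated in an infantile cardiomyopathy, by -0.16 (SE 0.13). Neither passed (adjusted p = 0.588 and 0.438).

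At the other end of the same group, Mrpl40 read 3.74, 3.03, 3.60 and 3.59 in Senp2-aKO samples, against 3.86, 3.85, 3.73 and 3.78 in control samples. Only Senp2-aKO 1 reached the control range, and the difference of -0.32 (SE 0.15) did not pass (adjusted p = 0.195). Mrpl49 differed by -0.24 (SE 0.13, adjusted p = 0.244). Both have 2 kept probes, and those of Mrpl40 gave -0.32 and -0.34.

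Large-subunit proteins inherited from bacteria gave no call in limma among 29 measured genes, 1 of which (Mrpl47) was higher at an unadjusted p under 0.05, with a median of 0.14 and 23 above 0. Mrpl47, which lies near the exit of the peptide tunnel, read 2.45, 2.40, 2.27 and 2.44 in Senp2-aKO samples, against 1.96, 2.32, 1.74 and 2.09 in control samples. The Senp2-aKO values were close together, and the high control 2 made the groups overlap (0.36, SE 0.13, adjusted p = 0.0997). Mrpl12, the stalk protein that recruits translation factors and also binds the mitochondrial RNA polymerase, read 5.12, 4.57, 4.80 and 5.08 in Senp2-aKO samples, against 4.66, 4.61, 4.43 and 4.92 in control samples. Senp2-aKO 2 was below 3 of the controls, and the difference of 0.24 (SE 0.16) did not pass (adjusted p = 0.333). Mrpl27, whose bacterial relative reaches towards the peptidyl transferase centre, was lowest in this group at -0.19 (SE 0.14, adjusted p = 0.403).

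No gene of the small subunit passed in limma. The 16 proteins with a bacterial counterpart had a median log2 fold change of 0.14 with 11 above 0, and the 10 without one a median of 0.07 with 6 above 0. Mrps31, in the head of the subunit, was highest and read 2.86, 2.49, 2.64 and 2.78 in Senp2-aKO samples, against 2.24, 2.51, 2.11 and 2.55 in control samples. Senp2-aKO 2 lay below controls 2 and 4, and the difference was 0.34 (SE 0.13, adjusted p = 0.126). Mrps35 followed at 0.23 (SE 0.14), and so did Mrps5, whose bacterial relative acts in the accuracy of decoding, at 0.23 (SE 0.16). Without adjustment, at a p under 0.05, 1 gene of the subunit (Mrps31) was higher and 1 (Mrps6) lower.

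None of the small-subunit genes chosen for their roles passed. Mrps12, a protein of the decoding centre, read 4.54, 4.07, 4.28 and 4.53 in Senp2-aKO samples, against 4.41, 4.44, 3.88 and 4.04 in control samples, and the groups overlapped (0.16, SE 0.17, adjusted p = 0.54). Mrps16 and Mrps22, whose human counterparts are mutated in inherited deficiencies of mitochondrial translation, differed by 0.14 (SE 0.11) and -0.01 (SE 0.14). Mrps14 and Mrps25 were among the lowest at -0.21 (SE 0.14) and -0.10 (SE 0.12). A dimmer probe of Mrps14 gave 0.18 and a dimmer probe of Mrps25 gave 0.08, so the direction of both genes rests on the probe.

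Mrps6 stood apart from the rest of the family. It read 5.75, 4.43, 5.77 and 5.98 in Senp2-aKO samples, against 6.31, 6.14, 6.17 and 6.36 in control samples. All Senp2-aKO arrays were below all controls, the only member of which this held (15.1% of all genes), and Senp2-aKO 2 was far below the other 3. With that array the difference was -0.76 (SE 0.31) or 0.591-fold (95% interval 0.358 to 0.975) and did not pass (adjusted p = 0.138). Without it the difference was -0.41 and passed (adjusted p = 0.0305). That array was left out after its values were seen, so passing without it is no test. In the RefSeq table the gene overlaps Slc5a3, the sodium and myo-inositol cotransporter, which read 1.71, 0.56, 2.0 and 1.54 in Senp2-aKO samples, against 1.94, 2.24, 1.71 and 2.15 in control samples. The Slc5a3 groups overlapped and the difference of -0.56 (SE 0.29) did not pass (adjusted p = 0.227), with the same array lowest.

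**Figure D2:**
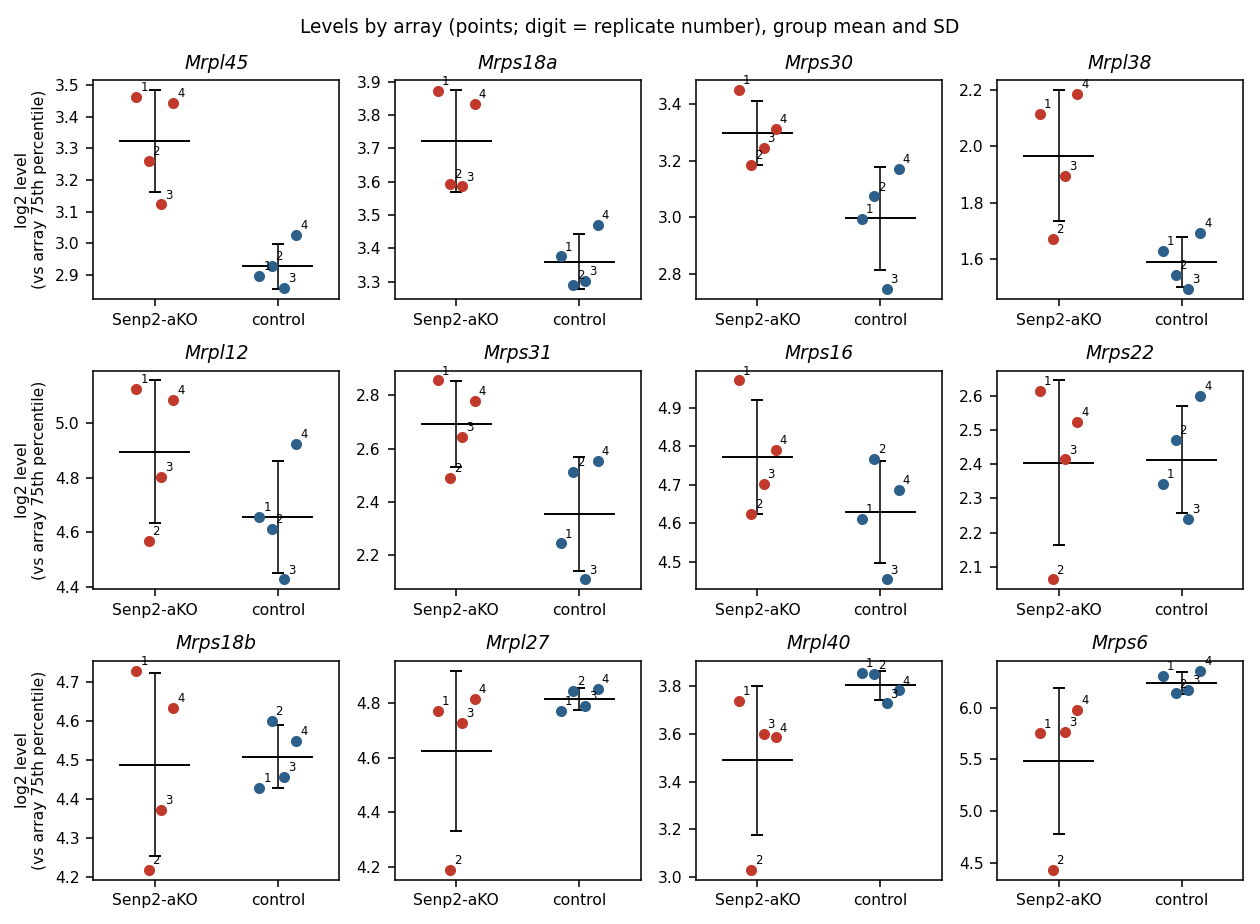
Log2 level relative to the array's 75th percentile (y axis, its own range in each panel) of 12 members, each point an array with its replicate number, lines the group mean and bars the SD (n = 4). Mrpl45, Mrps18a and Mrps30 separate the groups upwards and Mrps6 downwards, and in the other panels Senp2-aKO 2 reaches into or below the control range.

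Mrps36, chosen after its values were seen, read 3.80, 3.18, 3.76 and 3.98 in Senp2-aKO samples, against 3.34, 3.42, 3.25 and 3.35 in control samples. Senp2-aKO 2 was below every control and the other 3 were above every control. The difference was 0.34 (SE 0.17, adjusted p = 0.2), and 0.51 without that array (adjusted p = 0.0135). Both the gene and the array left out were chosen after their values were seen, so passing without it is no test.

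The members moved together from array to array, and the family mean was 3.58 ± 0.21 in Senp2-aKO samples and 3.49 ± 0.10 in control samples (SD, n = 4 each), a difference smaller than the spread within either group. The mean level of the 77 genes was 3.75, 3.29, 3.56 and 3.74 in Senp2-aKO samples 1 to 4, against 3.48, 3.55, 3.37 and 3.58 in control samples 1 to 4. Senp2-aKO 1 and 4 were the highest of the 8 arrays and Senp2-aKO 2 the lowest. The count of members above their own control mean was 71, 16, 58 and 70 on the Senp2-aKO arrays, against 29, 60, 2 and 68 on the control arrays. Over all 14730 genes the same count was 7783, 6338, 6694 and 7245 on the Senp2-aKO arrays, against 7338, 8009, 6404 and 7797 on the control arrays. Senp2-aKO 2 was the lowest of its group for 69 of 77 members, and for 26 of 26 in the small subunit, against 46.3% of all genes. It was the lowest of all 8 arrays for 40 members, against 35.6% of all genes, lay inside the control range for 28 and was above all controls for 9. Among controls, array 3 was the lowest for 60 of 77 members, against 34.9% of all genes.

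Both subunits followed this order. The mean of the large subunit was 3.80, 3.36, 3.60 and 3.78 in Senp2-aKO samples, against 3.51, 3.58, 3.41 and 3.61 in control samples. That of the small subunit was 3.65, 3.18, 3.46 and 3.63 in Senp2-aKO samples, against 3.41, 3.50, 3.28 and 3.52 in control samples. For either subunit, 2 Senp2-aKO arrays lay above every control and 1 below every control.

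**Figure D3:**
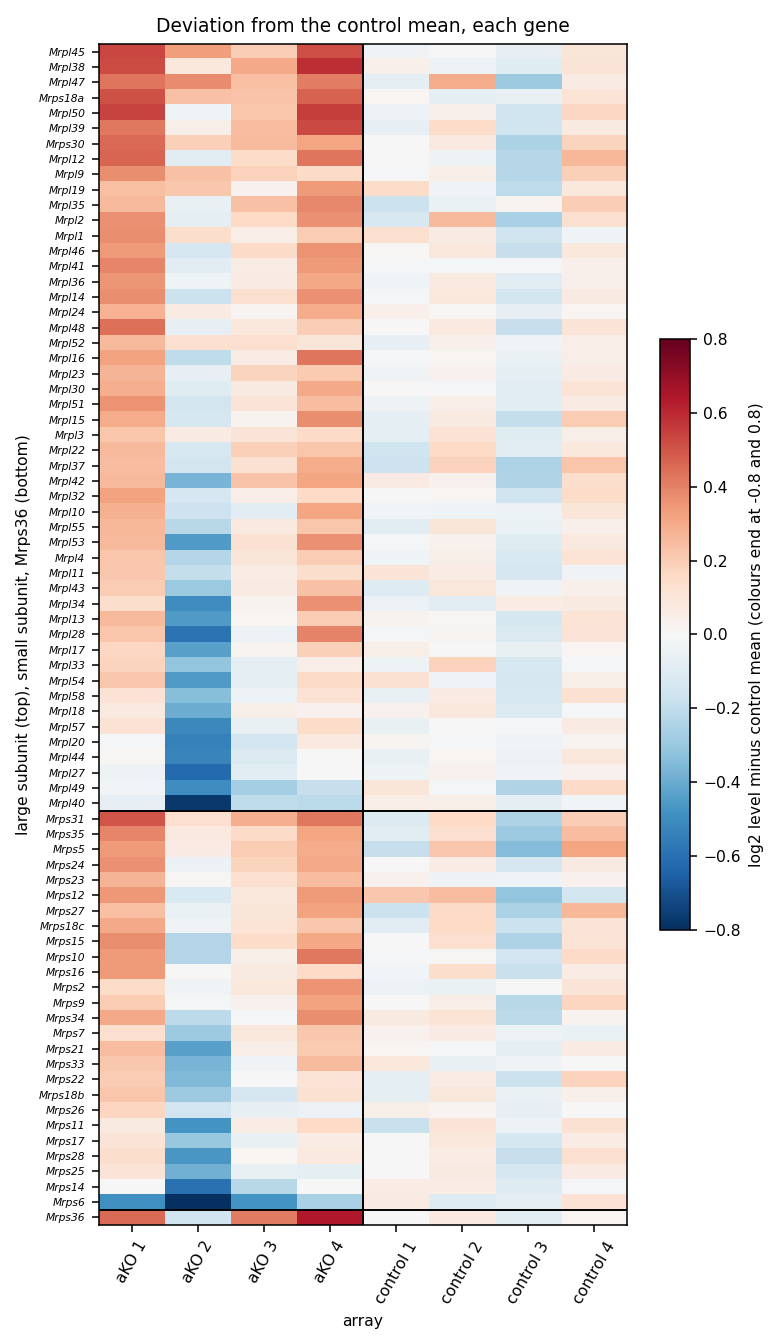
Log2 level of each member (rows, ordered by fold change within each subunit) minus its control mean, on each array (columns, Senp2-aKO at left). Senp2-aKO 1 and 4 are red over most rows, Senp2-aKO 2 is blue over most of the lower rows of both subunits, and control 3 is pale blue over nearly all rows.

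Without Senp2-aKO 2 the calls differed. Then 6 members rose, against 9.21% of all genes, and 1 fell, against 9.99%. Mrpl45 (0.42), Mrps18a (0.40), Mrpl38 (0.47), Mrpl39 (0.40), Mrpl50 (0.44) and Mrps36 (0.51) rose and Mrps6 (-0.41) fell, where Mrpl39 and Mrpl50 are named because they passed here. The median log2 fold change became 0.20 and 69 of 77 members were above 0. Of the 77 members, 23 had the other 3 Senp2-aKO arrays above all controls, against 16.1% of all genes. Senp2-aKO 2 was set aside for its low values in these same members, so neither the calls without it nor this count is a test of the family. Leaving out Senp2-aKO 1, Senp2-aKO 4 or control 3 moved the median the other way, to 0.08, 0.07 and 0.07, with no member passing in limma. In these settings 4.40%, 4.26% and 3.83% of all genes rose. Before adjustment, 3 members were higher and 3 lower at p under 0.05 without Senp2-aKO 1, and 3 higher and 1 lower both without Senp2-aKO 4 and without control 3. The share of all genes before adjustment was not counted in these settings, so these counts are not read as a result.

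Most skeletal muscle and brown adipocyte markers differed between the groups, where 7.29% of all genes rose. Lymphocyte markers set Senp2-aKO 2 apart, and none of them passed in limma. Of 18 skeletal muscle markers measured, 16 rose, and their summed signal was 664 to 1853 times the 75th percentile in Senp2-aKO samples, against 32.7 to 160 times in control samples; 17 of the 18 were above background on all 8 arrays. Of 9 brown adipocyte markers measured, 7 rose, with sums of 286 to 656 against 41.7 to 107. The 8 B lymphocyte markers summed to 56.4 in Senp2-aKO 2, against 3.93 to 4.16 in the other Senp2-aKO samples and 3.38 to 10.5 in controls, and the 9 T lymphocyte markers to 51.8 in Senp2-aKO 2, against 7.13 to 8.85 and 7.43 to 11.4. Of 10 general adipocyte markers, 1 rose and 1 fell, and all 10 were above background on every array, while 1 of 9 macrophage markers rose. The part of any of these in the mitochondrial ribosomal values was not tested.

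The respiratory chain, whose core the mitochondrial ribosome makes, was set beside the family through its nuclear subunits. Of 84 measured, 11 rose and none fell, where 7.29% of all genes rose. The median log2 fold change was 0.34, with 82 above 0 and a range between -0.97 and 4.16. The list was taken by symbol and includes tissue isoforms. Cox7a1 (2.66) and Cox8b (2.45), which rose, are counted both here and among the brown adipocyte markers. Their mean level was 6.29, 5.80, 6.08 and 6.37 in Senp2-aKO samples, against 5.68, 5.80, 5.57 and 5.84 in control samples. Senp2-aKO 1, 3 and 4 were above all controls, and Senp2-aKO 2 lay among them. Leaving out Senp2-aKO 2 raised the count to 49, where 9.21% of all genes rose. Leaving out any other array gave between 2 and 6, where between 2.95% and 7.43% of all genes rose. Whether the family and the respiratory chain genes differ in their response was not tested.

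Cytosolic ribosomal proteins, which make the mitochondrial ones, showed another order of arrays. Of 82 measured, 5 rose and none fell, where 7.29% of all genes rose, with a median of 0.30 and 81 above 0. The list was taken by symbol, so relatives with such a symbol are included, and log2 fold changes ran between -1.12 and 5.09. Their mean level was 7.17, 7.46, 7.05 and 7.0 in Senp2-aKO samples, against 6.84, 6.77, 6.79 and 6.87 in control samples. Senp2-aKO 2, the lowest array for mitochondrial ribosomal proteins, was the highest here. Under quantile normalisation this median was 0.08, that of the respiratory chain 0.17 and that of the mitochondrial ribosomal proteins 0.10. Leaving out 1 array gave between 1 and 9 calls, where between 2.95% and 9.21% of all genes rose. The 9 calls and the 9.21% were those without Senp2-aKO 2.

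**Figure D4:**
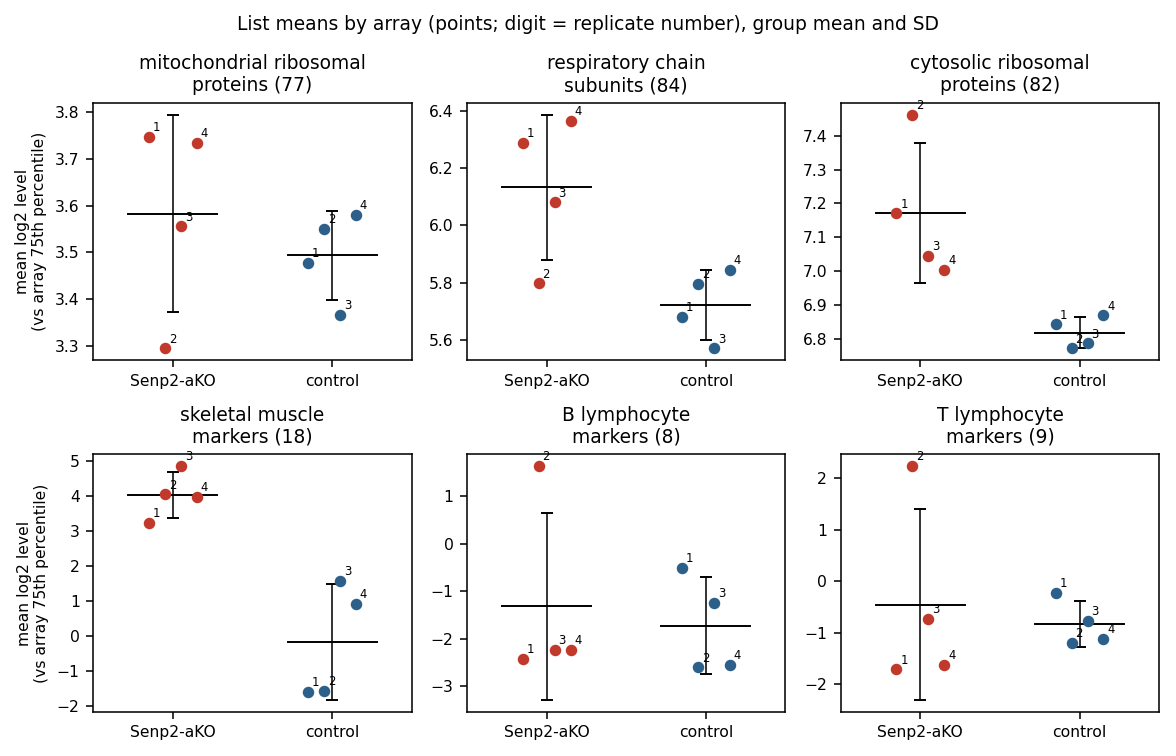
Mean log2 level of 6 gene lists on each array (points with replicate number; line, group mean; bar, SD; n = 4; each panel has its own y range). Senp2-aKO 2 is lowest for mitochondrial ribosomal proteins (3.29), highest for cytosolic ones (7.46) and highest for both lymphocyte lists.

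**Figure D5:**
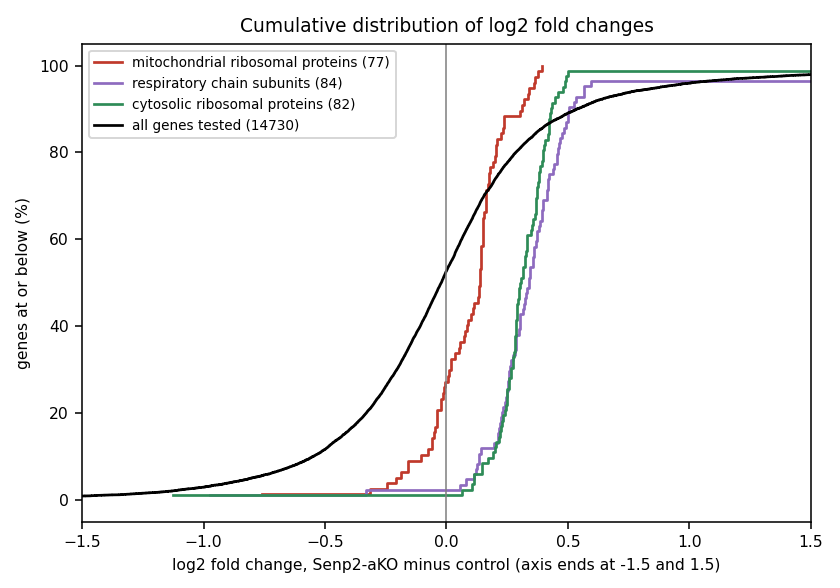
Share of genes at or below each log2 fold change (x axis, Senp2-aKO minus control, drawn between -1.5 and 1.5) for 77 mitochondrial ribosomal, 84 respiratory chain and 82 cytosolic ribosomal genes and all 14730 genes. The median of the mitochondrial ribosomal genes (0.14) lies between that of all genes (-0.02) and those of the other lists (0.34 and 0.30). Their curve ends at 0.39, while the other curves run on to higher values.

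Few other genes of mitochondrial gene expression passed the test. Of 22 genes for assembly of the ribosome and modification of its RNA, 2 rose and none fell in limma, where 7.29% of all genes rose. Their median log2 fold change was 0.11, with 16 above 0 and 6 below, the lowest at -0.36. At an unadjusted p under 0.05, 3 were higher and 2 were lower, against 14.7% and 17.6% of all genes. The groups separated without overlap upwards in 2 genes and downwards in 1, against 11.2% and 15.1% of all genes. Mterf3, a factor in mitochondrial transcription and ribosome assembly, read 0.54, 0.61, 0.43 and 0.61 in Senp2-aKO samples, against 0.05, 0.20, 0.13 and 0.23 in control samples (0.40, SE 0.09, adjusted p = 0.0221). Ddx28, a DEAD-box helicase needed for the large subunit, read 1.02, 0.83, 0.83 and 1.09 in Senp2-aKO samples, against 0.44, 0.49, 0.21 and 0.58 in control samples (0.51, SE 0.11, adjusted p = 0.0238). In both genes the groups did not overlap and Senp2-aKO 2 was not set apart. Neither passed without Senp2-aKO 1 or 4 or control 1, 2 or 3, where adjusted p reached 0.0753 for Mterf3 and 0.0701 for Ddx28, nor under median centring (0.0667 and 0.0635). With the replicate number as a block in limma, Mterf3 did not pass (adjusted p = 0.0644) and Ddx28 did (adjusted p = 0.0441).

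None of 15 translation factors, 19 mitochondrial tRNA synthetases, 10 genes of mitochondrial DNA transcription and replication and 5 mitoribosomal proteins with other symbols passed in limma. At an unadjusted p under 0.05, 1, 2, 1 and 0 of them were higher, against 14.7% of all genes. The lowest p in these lists belonged to Gfm2, a factor for ribosome recycling (0.39, SE 0.13, adjusted p = 0.085), Pars2, the prolyl-tRNA synthetase (0.28, SE 0.11, adjusted p = 0.13), Tfam, which packages mitochondrial DNA and starts its transcription (0.32, SE 0.11, adjusted p = 0.0952), and Gadd45gip1, a large-subunit protein (0.32, SE 0.15, adjusted p = 0.18). Their medians were 0.13 for translation factors, 0.06 for synthetases, 0.24 for transcription and replication and 0.18 for the proteins with other symbols. The synthetase median turned to -0.03 under median centring, with 8 of 19 above 0, and to -0.01 without control 3, and it was 0.16 without Senp2-aKO 2. Tfam read 1.95, 1.97, 1.72 and 1.75 in Senp2-aKO samples, against 1.63, 1.65, 1.30 and 1.53 in control samples, with no overlap. Without Senp2-aKO 2, 3 of 15 translation factors and 1 of 10 genes of transcription and replication rose, against 9.21% of all genes. Genes encoded by mitochondrial DNA itself, the ribosomal RNAs included, were not analysed here.

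Of 10 regulators of nuclear genes for mitochondrial proteins, 2 rose and none fell in limma, where 7.29% of all genes rose. Their median log2 fold change was 0.02, with 5 above 0 and 5 below, the lowest at -0.82. At an unadjusted p under 0.05, 3 were higher and 1 was lower, against 14.7% and 17.6% of all genes. In limma 1 fell with normexp and quantile normalisation, with the replicate number as a block and without Senp2-aKO 4. Of all 14730 genes, 1599, 569 and 531 fell in these settings. Ppargc1a, the coactivator PGC-1α that drives mitochondrial biogenesis, read 0.85, 1.75, 0.66 and 1.69 in Senp2-aKO samples, against -0.14, 0.18, -0.72 and -0.41 in control samples. All Senp2-aKO arrays were above all controls, by 1.51 (SE 0.30) or 2.84-fold (95% interval 1.76 to 4.59; adjusted p = 0.0178, and 0.051 without control 1). Its order of arrays was not that of the family: Senp2-aKO 2 had the highest Ppargc1a level and the lowest mean of mitochondrial ribosomal proteins. Esrrb, an orphan nuclear receptor, rose by 1.0 (SE 0.27, adjusted p = 0.0462) at a low signal, and passed when Senp2-aKO 2 or 3 was left out. With any other array left out it did not, and adjusted p lay between 0.0603 and 0.104. The Esrrb call was also lost under median centring (0.0694), quantile normalisation (0.0705), no filter on dim probes (0.0738) and a trended and robust variance (0.0501).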

How the data were processed

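RNA of 4 Senp2-aKO and 4 control samples was hybridised to 1-colour arrays. Agilent Feature Extraction 11.5.1 read them, per the submitters' processing notes. The deposited processed signal and median signals are intensity values, per the file headers, not scaled from array to array. The processed signal had been corrected for background within the array, and the median signals served the normexp alternative. The deposited flags for background and outliers are of the unit other (0 or 1). A deposited matrix of 8 further columns of per-sample values was not used, because its column names match no label.

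Log2 signals were taken relative to the 75th percentile of the array, and spots of a probe averaged without outlier flags. Probes well above background on at least 4 of 8 arrays were kept (30508 of 55412). Names came from matching unversioned RefSeq accessions to the GRCm38.p6 table, which named 19231 kept probes, and the probe with the highest mean stood for a gene. The files' own coordinates are of another build and are not printed. limma 3.58.1 in R 4.3.3 compared the groups, with Benjamini-Hochberg adjustment over 14730 genes and a threshold of 0.05. Precision is limited by having 4 arrays per group.

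Members and lists were chosen with earlier results of these data known. Named members were those that passed, the 3 highest and 3 lowest of each subunit, and 11 chosen for their roles, and in other lists the passing genes or the one with the lowest p, with Senp2 and Ppargc1a. Alternatives covered scaling, background, filter, probe choice, array weights, variance model, replicate block and leaving out each array.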

Additional observations from a re-analysis of the deposited data

Results flagged for a closer look

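The level of Mrpl27 on Senp2-aKO 2 was 4.19, against 4.73 to 4.81 on the other Senp2-aKO arrays, and that of Mrps6 on the same array was 4.43, against 5.75 to 5.98. In both genes the gap between this array and the nearest of the other 3, set against the range of the group, exceeded the 95% critical value of Dixon's test for 4 samples. Dixon's test was run on 50 groups of 4 arrays, those of 22 named members and 3 family means, and these 2 exceeded it. Chance alone gives about 1 in 20 such groups.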

How the results depend on the processing

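Mrpl45 was the only member that rose in the main fit, where 7.29% of all genes rose. The share of all genes that rose in each other setting is given in brackets. The count of members that rose was 3 under quantile normalisation (7.04%) and 3 with normexp background and quantile normalisation (7.35%). It was 2 when probes had to be above background on all 8 arrays (7.81%), 2 with a trended and robust variance (7.86%) and 8 with array weights (12.4%). It was 0 with median centring (5.24%), with no filter on dim probes (4.05%) and with each kept probe tested on its own, an alternative chosen after seeing the data. Leaving out each array in turn gave between 0 and 6 members that rose and between 0 and 1 that fell. Between 2.95% and 9.21% of all genes then rose. With normexp and quantile normalisation 2 fell, Mrpl20 and Mrps6, where 1599 of all 14730 genes fell. With the replicate number as a block, 0 members rose (Mrpl45, adjusted p = 0.0757) and 725 of all genes did, against 1074. Deviations of samples with the same number correlated by -0.02, -0.08, 0.14 and 0.11, and 2 of 4 Senp2-aKO arrays correlated best with their own number, so the numbers were not taken to pair samples. The medians of both subunits stayed above 0 in every setting, between 0.04 and 0.22 for the large and between 0.03 and 0.19 for the small subunit. The median of all genes moved too, between -0.11 with median centring and 0.06 with no filter on dim probes. The family median exceeded it by 0.16 in the main fit, by 0.08 with no filter and by 0.22 with array weights. Mrps18b became positive with array weights (0.085) and Mrps22 with array weights (0.092) and normexp (0.017), and leaving out 1 array moved them between -0.10 and 0.069 and between -0.080 and 0.10. Mrps14 and 3 other genes of 22 with several kept probes had probes of opposite sign. The cause of these changes was not tested.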
